A study of Homo sapiens with 22 samples.

Results

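FOSL1 regions of PC3 prostate cancer cells were compared between cells that received a negative-control siRNA (siNC) and cells in which FOXA2 was silenced (siFOXA2). PC3 is a line derived from a bone metastasis of prostate cancer. Both ChIP-seq samples came from PC3 cells kept in the same serum-supplemented medium, each gave 1 list of enriched regions, and the time between transfection and fixation was not given in the sources used here. The members were all regions of the FOSL1 siNC and FOSL1 siFOXA2 lists except those at places listed in 17 or more of the series' 22 lists. This left 3448 of 3843 siNC regions and 1318 of 1538 siFOXA2 regions, 4766 regions in all, against 871377 regions over the 22 lists as deposited. A siNC region was called kept if it shared at least 1 bp with a siFOXA2 region and lost otherwise, and a siFOXA2 region was called new if it met no siNC region. The regions were described with further PC3 lists. These were JUN in siNC and in siFOXA2 cells, FOXA2 in vehicle-treated cells, and 2 other FOXA2 ChIPs whose titles also say vehicle. H3K27ac and ATAC-seq for accessible chromatin came from vehicle-treated cells too, so neither was measured in siRNA-treated cells. Region lists hold no expression values, so the extent of FOXA2 silencing and the identity of the line could not be checked here.

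FOSL1 (FRA1) is a FOS family subunit of AP-1. It lacks the transactivation domain of FOS, binds DNA as a heterodimer with a JUN protein through a basic leucine zipper, and recognises the site TGAGTCA, which reads TGACTCA on the other strand. In carcinoma cells FOSL1 is known for its part in migration, invasion and mesenchymal or basal programs. FOXA2 is a forkhead factor that can bind nucleosomal DNA and open chromatin to other factors, and whether AP-1 occupancy in PC3 depends on it was the question of the silencing experiment.

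With 1 list per side, 98.2% of the siNC regions were lost under siFOXA2, and this value is at the same time the background for every count of lost regions that follows. In numbers, 3385 regions were lost and 63 were kept, a kept share of 1.83% (Wilson 95% interval 1.43% to 2.33%). The siFOXA2 list had fewer regions, with a log2 ratio of region numbers of -1.39 (95% interval -1.48 to -1.30), and 1254 of its 1318 regions, 95.1% (93.8% to 96.2%), were new. With scores of at least 30 only, the log2 ratio was -3.82, and the kept share was 3.72% with equal numbers of top regions and 6.90% with no removal of shared places. All intervals here cover counting error only, since no replicate of either sample was analysed and the regions of a list are not replicates of a condition. No test between the conditions was therefore possible, and no p-value is given.

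The siFOXA2 list differed from the siNC list in kind as well as in number, which bears on every statement about loss. Peak scores are whole numbers whose range fits 10 times a −log10 q-value, and they had a median of 70 in the siNC list and of 13 in the siFOXA2 list, where 13 was also the lowest score present in both. Among siFOXA2 regions 78.1% stood in no other list of the series, against 8.35% of siNC regions. Regions of the siFOXA2 list were also narrower, from 161 bp upwards with a median of 189 bp, against 212 bp upwards and 253.5 bp. The number of reads behind each list was not known, and the part that depth or immunoprecipitation yield had in the difference was not tested. The removal limit matters too, because the FOSL1 siFOXA2 list is itself one of the 22. At places shared by 16 lists 18 siNC regions, 14.4%, were kept, whereas of the 98 regions at places shared by 17 lists 41.8% met a siFOXA2 region. The share was 19.7% at 18 lists, 29.0% at 19 and 48.1% at 20, so the value at 17 was above its neighbours.

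The AP-1 site set lost and new regions apart. The sequences below are the reference genome (GRCh37, the same coordinates as hg19) around AP-1 sites of lost regions, on the plus strand, with the AP-1 site nearest to the region centre in capitals and 40 bases on either side. The first 6 are those of the highest-scoring lost regions that held an AP-1 site and met a JUN region in siNC cells, leaving out chromosomes 8 and 18. The next 4 lie near FOSL1 itself and near PLAU, a textbook AP-1 target, and ITGA3, an integrin gene.
downstream of NRP1, chr10:33423136-33423222: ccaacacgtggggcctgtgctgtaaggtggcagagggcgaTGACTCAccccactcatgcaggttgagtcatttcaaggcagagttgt
NRP1 promoter, chr10:33553304-33553390: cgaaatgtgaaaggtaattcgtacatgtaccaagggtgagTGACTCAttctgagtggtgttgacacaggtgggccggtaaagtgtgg
KCNMA1 intron, first region, chr10:79110595-79110681: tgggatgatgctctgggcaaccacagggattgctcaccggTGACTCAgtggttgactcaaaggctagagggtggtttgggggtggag
KCNMA1 intron, second region, chr10:78923876-78923962: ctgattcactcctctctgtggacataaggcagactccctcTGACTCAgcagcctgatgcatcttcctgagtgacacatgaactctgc
ZMIZ1 intron, chr10:80911595-80911681: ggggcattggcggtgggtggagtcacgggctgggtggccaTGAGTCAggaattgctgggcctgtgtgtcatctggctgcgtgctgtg
ABLIM3 intron, chr5:148567257-148567343: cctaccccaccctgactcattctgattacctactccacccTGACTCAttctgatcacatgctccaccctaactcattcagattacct
upstream of FOSL1, chr11:65683262-65683348: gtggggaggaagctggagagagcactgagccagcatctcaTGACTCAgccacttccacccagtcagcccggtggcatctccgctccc
FOSL1 promoter, chr11:65666817-65666903: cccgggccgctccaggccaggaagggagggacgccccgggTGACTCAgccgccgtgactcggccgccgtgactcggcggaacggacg
upstream of PLAU, chr10:75659251-75659337: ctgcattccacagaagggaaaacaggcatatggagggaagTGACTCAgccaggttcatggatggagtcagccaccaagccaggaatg
upstream of ITGA3, chr17:48128504-48128590: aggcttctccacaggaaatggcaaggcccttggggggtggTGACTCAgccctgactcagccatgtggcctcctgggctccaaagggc
Further AP-1 sites in these regions stay in lower case: the whole region held 2 sites downstream of NRP1, at the NRP1 promoter, in the first KCNMA1 region, upstream of FOSL1 and upstream of ITGA3, 3 in the ABLIM3 intron, and 1 elsewhere. None of the 12 windows shown here and further on held the forkhead letters TGTTTAC or TATTTAC on either strand.

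Kept regions almost never held such a site. Among the 63, 3 had an AP-1 site within 100 bp of the centre, and the sequences of 2 of these follow, printed in the same way.
SH3BP5 coding exon, chr3:15311170-15311256: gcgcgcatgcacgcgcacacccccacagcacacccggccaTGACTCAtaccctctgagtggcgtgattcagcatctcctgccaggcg
near ONECUT3, chr19:1747434-1747520: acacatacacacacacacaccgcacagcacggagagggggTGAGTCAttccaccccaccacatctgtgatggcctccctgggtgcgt
The regions in SH3BP5 and near ONECUT3 had FOSL1 peak scores of 115 and 83 in siNC cells. The siFOXA2 regions that they met scored 13 and 17 for FOSL1. Those siFOXA2 intervals, chr3:15310982-15311182 and chr19:1747261-1747446, ended before the capitalised sites, so the overlap that made these regions kept did not include them. Both regions met JUN regions in both conditions, with JUN scores of 814 and 985 in siNC and of 198 and 232 in siFOXA2 cells.

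Within 100 bp of the centre, TGAGTCA on either strand was present in 1331 of 3385 lost regions, or 39.3% (37.7% to 41.0%). In windows of the same length 2 kb to either side the share was 2.73%, and at all 210516 accessible PC3 regions it was 16.9%. Of the lost regions with a site, 912 had 1 site in that window, 347 had 2 and 72 had more. The sites sat at the centres: 54.8% of the regions with a site had one within 25 bp of the centre. In new regions the site was found in 34 of 1254, or 2.71% (1.95% to 3.76%), beside 2.83% in windows 2 kb away, so these shares differed by less than the counting error. Among new regions with a score of at least 30 it was found in 7 of 170, or 4.12% (2.01% to 8.25%), and among those with a score of at least 50 in 0 of 48, where the upper Wilson bound was 7.41%. In lost regions, by contrast, the share was 51.4% at a score of at least 50.

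**Figure D1:**
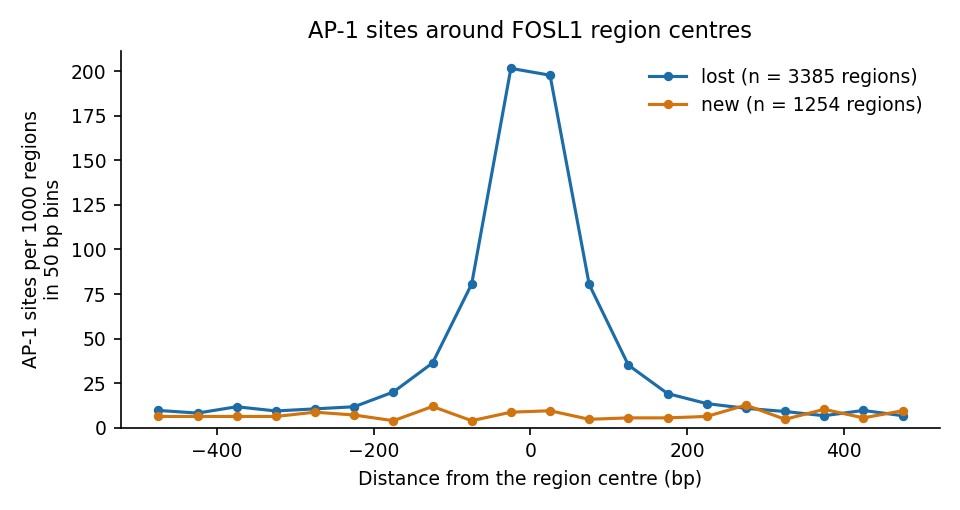
AP-1 sites (TGAGTCA on either strand) per 1000 regions (vertical axis) in 50 bp bins of distance from the region centre (horizontal axis, bp), for the 3385 lost and 1254 new FOSL1 regions. Lost regions peaked at 682 and 669 sites in the bins on either side of the centre, the latter being 198 per 1000, whereas new regions stayed between 3.99 and 12.8 over all bins.

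Other motifs were less frequent. The TEAD letters GGAATG on either strand were present in 15.6% of lost regions and in 11.2% of the windows 2 kb away, and in new regions in 10.2% and 9.81%. The RUNX letters TGTGGTT were present in 5.61% of lost regions against 3.86% in windows 2 kb away, and the cyclic AMP response element TGACGTCA in 0.709% against 0.0443%. The forkhead letters were present in 4.90% of lost regions, less often than in the windows 2 kb away at 6.93% and at accessible regions in general at 9.30%. JUN regions of siNC cells held them in 13.2%. No site or factor can be read from a motif match alone.

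Lost regions mostly overlapped ATAC, H3K27ac and JUN siNC regions, and new regions rarely did. The ATAC and H3K27ac lists came from vehicle-treated cells, so the state of the new regions in siFOXA2 cells was not measured. Of the lost regions 77.4% (76.0% to 78.8%) overlapped an ATAC region, 60.1% (58.4% to 61.7%) an H3K27ac region, the acetylation that marks active promoters and enhancers, and 63.3% (61.6% to 64.9%) a JUN region of siNC cells. Of the new regions 9.17% (7.70% to 10.9%) overlapped an ATAC region, 4.31% (3.32% to 5.58%) an H3K27ac region and 2.71% (1.95% to 3.76%) a JUN region of siNC cells. Only 9 of 1254 new regions, 0.718% (0.378% to 1.36%), overlapped a JUN region of siFOXA2 cells, the list from the same silencing condition. Among new regions with a score of at least 30 the ATAC share was higher, at 30.6% (24.2% to 37.9%).

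**Figure D2:**
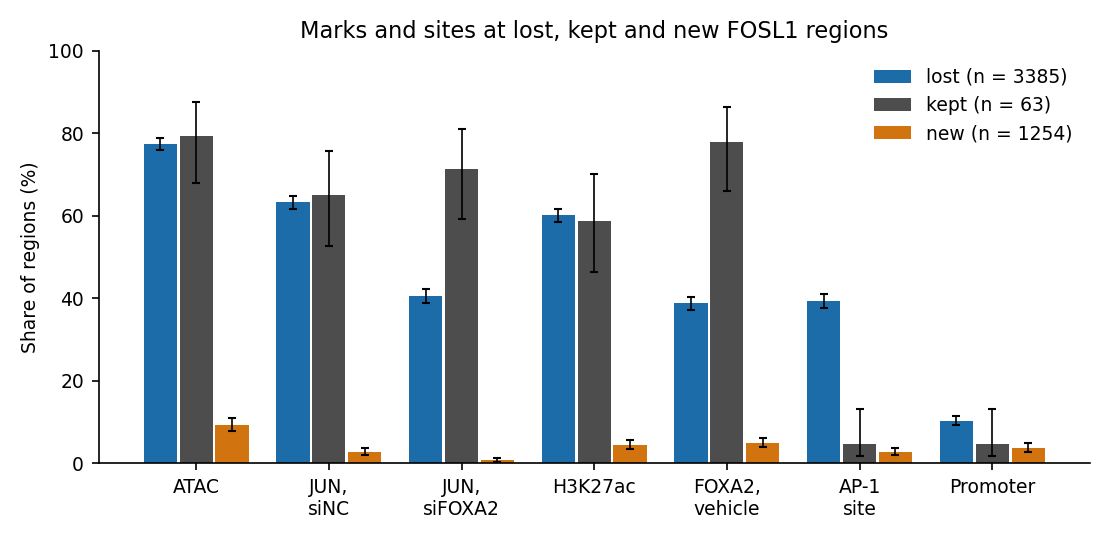
Share of lost, kept and new FOSL1 regions (vertical axis, %) that overlapped ATAC, JUN, H3K27ac and FOXA2 regions of PC3 cells, held an AP-1 site within 100 bp of the centre or lay within 1 kb of a protein-coding start, with Wilson 95% intervals as error bars. New regions were under 11% for every feature, lost regions had the highest AP-1 share at 39.3%, and kept regions had the highest share with FOXA2 of the vehicle list at 77.8%.

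By position, 10.3% (9.33% to 11.4%) of lost regions lay within 1 kb of the start of a protein-coding transcript, 32.7% in introns and 55.3% between protein-coding genes, with a median distance of 53647 bp from the region centre to the nearest start. New regions were at promoters in 3.67% (2.76% to 4.86%), in introns in 40.6% and between genes in 53.3%. For comparison, 10.3% of all accessible regions and 8.55% of JUN siNC regions were at promoters. FOSL1 regions at promoters had fewer AP-1 sites, 27.3% of 352 against 1238 of the 3096 others, and met JUN less often in siFOXA2 cells, 16.5% against 1361 of 3096. Both groups were hardly kept, at 0.852% (0.290% to 2.47%) and 1.94% (1.51% to 2.49%).

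The siNC list was a mixture, and the AP-1 site and ATAC divided it. The 1316 accessible regions with an AP-1 site met JUN in siNC cells in 94.8% (93.4% to 95.8%) and carried H3K27ac in 83.7%, and 3 of them were kept. The 1355 accessible regions without an AP-1 site met JUN in 57.2% (54.5% to 59.8%), included 253 regions at promoters, and 47 of them were kept. The 759 regions with neither met JUN in 21.1% and H3K27ac in 15.4%. These 759 overlapped the list of FOXA2 made in LNCaP cells overexpressing FOXA2 in 30.3%, and the accessible regions without an AP-1 site did so in 34.8%, against 0.760% of the accessible regions with one. Only 18 regions had an AP-1 site without being accessible. Of the 1334 siNC regions with an AP-1 site in all, 0.900% stood in no other list, against 13.1% of the 2114 without one.

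Most features were more frequent among siNC regions with higher peak scores, up to the second highest group. From the lowest to the highest of 5 equal groups by score, ATAC overlap was 41.3%, 72.6%, 89.7%, 93.3% and 90.4%, and JUN siNC overlap 22.2%, 49.5%, 77.0%, 84.9% and 83.0%. JUN siFOXA2 overlap was highest in the top group, with 10.9% in the lowest and 70.1% in the highest. AP-1 sites too were most frequent in the second highest group, at 57.6%, and stood at 46.1% in the highest. The kept share went from 0.145% (0.0256% to 0.816%) to 5.80% (4.29% to 7.80%). A high FOSL1 score in siNC cells went with a JUN region in siFOXA2 cells far more often than with a FOSL1 region in siFOXA2 cells.

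**Figure D3:**
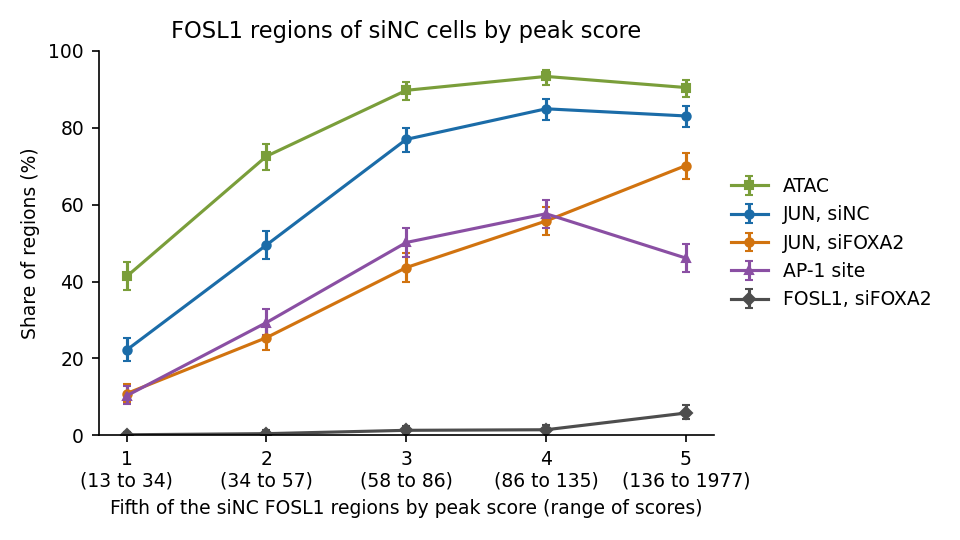
FOSL1 regions of siNC cells divided into 5 equal groups by peak score (horizontal axis, with the range of scores), and the share in each group (vertical axis, %) that overlapped ATAC, JUN siNC, JUN siFOXA2 or FOSL1 siFOXA2 regions or held an AP-1 site. Error bars are Wilson 95% intervals, and the FOSL1 siFOXA2 line stays at or below 5.80% in every group.

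JUN gave a separate view of the same places after silencing. In the JUN siNC list 88% of 23504 regions were lost under siFOXA2, and this is the background for JUN. At JUN regions that overlapped a FOSL1 siNC region, 1273 of 2168, or 58.7% (56.6% to 60.8%), were still listed under siFOXA2, against 1543 of 21336, or 7.23% (6.89% to 7.59%), at JUN regions without FOSL1. The difference was 51.5 percentage points (49.4 to 53.6), and it was 34.9 points when standardised over deciles of the JUN score, as JUN regions with FOSL1 had the higher scores (median 391 against 139). It was present in each decile, from 36.7% against 1.95% in the lowest to 76.6% against 42.7% in the highest. In the lowest decile 5.10% of the JUN regions with FOSL1 held an AP-1 site, against 21.2% of those without FOSL1, and in the highest 75.5% against 62.7%. With an AP-1 site required, the shares were 57.5% of 1218 and 8.39% of 10581. The median JUN scores of these groups were 552 and 164, and these shares were not standardised over the score.

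**Figure D4:**
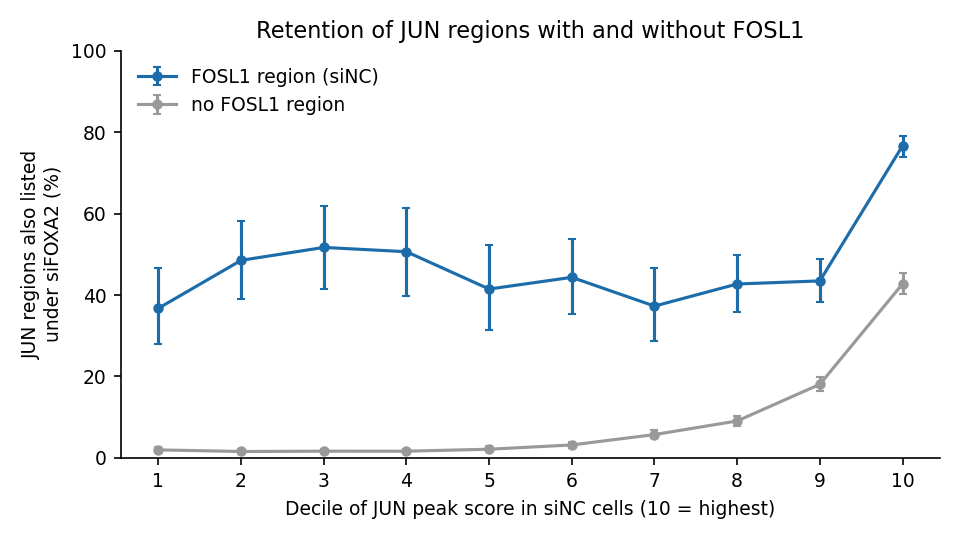
Share of PC3 JUN siNC regions that were also listed for JUN under siFOXA2 (vertical axis, %) by decile of JUN peak score (horizontal axis, 10 the highest), for JUN regions with and without a FOSL1 region in siNC cells. Error bars are Wilson 95% intervals, and the line for regions with FOSL1 lies above the other in all 10 deciles.

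At places with both AP-1 subunits and the motif, JUN was often still listed and FOSL1 almost never. Of the 1248 FOSL1 siNC regions with an AP-1 site and a JUN siNC region, 723, or 57.9% (55.2% to 60.6%), met a JUN region under siFOXA2, and 2, or 0.160% (0.0440% to 0.582%), met a FOSL1 region. JUN scores were lower there all the same: of the JUN regions with FOSL1 and an AP-1 site in both JUN lists, 699 of 700 had a lower score under siFOXA2, with a median log2 ratio of -2.17. Without FOSL1, 884 of 888 JUN regions with an AP-1 site were lower, with a median of -2.05. Over all JUN regions in both lists 2624 of 2816 were lower, with a median of -1.98, and the share was 88.8% with FOSL1 and 96.8% without, whether or not a site was present. The JUN and FOSL1 lists carried different processing-folder names in their region identifiers, while the siNC and siFOXA2 lists of each factor shared one. Differences between immunoprecipitations and between subunits cannot be told apart in these lists. According to the paper, FOXA2 silencing also lowered FOSL1 mRNA and protein in PC3 cells. The part that this had in the FOSL1 values was not tested.

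FOXA2 overlapped 39.4% (37.8% to 41.1%) of the FOSL1 siNC regions in the vehicle list, and 39.4% and 36.2% in the other FOXA2 ChIPs. At FOSL1 regions with an AP-1 site the lists differed, with 41.9% in the vehicle list but 69.7% and 63.6% in the other ChIPs. The lists also differ in size, with 24038 regions in the vehicle list and 77822 and 62714 in the others as deposited. The part that list size had in these shares was not tested. At the 1248 places with an AP-1 site and JUN, a JUN region was still listed under siFOXA2 in 63.6% (59.5% to 67.5%) of the 547 with FOXA2 in the vehicle list and in 53.5% (49.8% to 57.2%) of the 701 without. The first of the other FOXA2 ChIPs gave 61.5% (58.2% to 64.6%) of 908 and 48.5% (43.3% to 53.8%) of 340, and the second 61.1% and 51.7%. These groups were not matched on peak score. Over all siNC FOSL1 regions, FOXA2 vehicle overlap was 14.8% in the lowest of the 5 score groups and 54.5% in the highest. JUN siFOXA2 overlap was 10.9% and 70.1% in the same groups. The part that peak score had in the differences was not tested. In every one of these subsets no more than 2 FOSL1 regions were kept, so FOSL1 loss could not be compared between FOXA2-bound and FOXA2-free places.

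The 63 kept regions were unlike the rest. Of these, 71.4% (59.3% to 81.1%) lay at places shared by 12 to 16 lists, against 577 of 3385 lost regions. FOXA2 overlapped 77.8% (66.1% to 86.3%) of them in the vehicle list but 11.1% and 12.7% in the other ChIPs, and JUN siFOXA2 overlapped 71.4%. Their scores were lower under siFOXA2 in 55 of 63, with medians of 174 and 36. The highest-scoring ones had no AP-1 site. The top was a 216 bp interval at chr10:98561330-98561545, near LCOR, a nuclear receptor corepressor, with a score of 928 in siNC cells and shared by 13 lists. Next was an interval in an intron of WDR41 at chr5:76907321-76907629, with a score of 587 and shared by 16 lists.

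In all, 8 of the kept regions scored higher under siFOXA2 than under siNC, and 2 of these lay on the coding sequence of factors that the study handles. At JUN, an intronless gene, the interval chr1:59247442-59248923 covered 100% of the 1059 coding bases, with scores of 432 in siNC and 1148 in siFOXA2 cells. At FOXA2, chr20:22563040-22563744 lay wholly in coding sequence and covered 50.8% of it, with scores of 60 and 106. A further one was at the promoter of PGK1, a glycolytic enzyme, with 106 and 134. None of these 3 held an AP-1 site or met a JUN region in either condition, and the intervals at JUN and FOXA2 met no ATAC region in PC3. Besides FOSL1, the intervals at JUN and FOXA2 were covered by PC3 H3K27ac, NCI-H660 H3K4me2 and, at FOXA2, NCI-H660 ATAC regions. The labels name no expression construct for these PC3 samples, and the source of these intervals was not tested.

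Of the 10 highest-scoring lost regions, 1 held an AP-1 site. The 3 highest without an AP-1 site were an interval in an intron of TAF4B at chr18:23841144-23841359 with a score of 1977, one near C1orf87 at chr1:60683081-60683296 with 1403 and one in an intron of PDGFD at chr11:104010491-104010708 with 1039. They were 216 to 218 bp wide, overlapped H3K27ac but no JUN, FOXA2 vehicle or ATAC region in PC3, and were shared by 7 or 8 lists. Between them in score, with 1232, came the AP-1 region downstream of NRP1 at chr10:33422921-33423347, printed above. It had the highest JUN score of the siNC list, 7149, and a JUN score of 1242 under siFOXA2. NRP1 encodes neuropilin 1, a co-receptor for semaphorins and VEGF. Its promoter region at chr10:33553115-33553518 scored 688 for FOSL1, with JUN scores of 5497 and 1144 and a FOXA2 score of 8091. This region lay 685 bp upstream of a start of NRP1 that is not its most upstream one. In the first and second KCNMA1 regions shown above, FOSL1 scored 665 and 600 and JUN 5364 and 6009 in siNC, then 1169 and 1430 in siFOXA2 cells. KCNMA1 encodes a calcium-activated potassium channel. In the ZMIZ1 intron FOSL1 scored 441 and JUN 2892, then 633. These NRP1, KCNMA1 and ZMIZ1 regions were absent from the FOSL1 siFOXA2 list while present in the JUN siFOXA2 list.

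The highest-scoring new regions had no AP-1 site in any of the first 10. The top was an interval on chromosome Y, chrY:13842644-13842808, with a score of 1622. It was 165 bp wide and met a PC3 ATAC region but no JUN, H3K27ac or FOXA2 vehicle region. The next were chr2:89852958-89853265 with 251 and the promoter of SNX16, a sorting nexin, with 241. Of all 1254 new regions, 82.1% (79.9% to 84.2%) stood in the FOSL1 siFOXA2 list alone.

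At the level of genes, 13.4% of 19794 protein-coding genes had a siNC FOSL1 region within 50 kb of a start, 13.3% a lost one, 5.75% a lost one with an AP-1 site and JUN, and 5.76% a new one. There were 180 genes with both a lost and a new region nearby, 6.85% of those with a lost and 15.8% of those with a new region. Most genes near lost regions, 2279 of 2626, had a single one. The members and lists that follow were described by counts beside these backgrounds.

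AP-1 subunit genes had a siNC FOSL1 region in 5 of 19 (26.3%). FOSL1 itself had 3, with scores of 138 and 122 at the promoter and 199 at a place 15283 bp upstream, chr11:65683163-65683490. All of these met JUN in siNC cells, with scores of 546, 116 and 1844. Under siFOXA2 JUN was listed only at the upstream place, with a score of 409, and FOSL1 at none. FOSL2, the closest relative of FOSL1, had 1 region of score 78 at its promoter with an AP-1 site, and JUN scored 458 and 194 there. JUND had 1 at its promoter with a score of 181 but neither an AP-1 site nor a JUN region. ATF3, a stress-induced partner of JUN, had 2, of which the one 6304 bp upstream had a score of 113 and JUN scores of 720 and 187. The fifth gene, JUN, had the kept interval on its coding sequence. No region was found near FOS, FOSB or JUNB. New regions of score 13 lay near BATF2 and MAFK, and the one near MAFK, which met JUN siNC, FOXA2 and ATAC regions and stood in 13 lists, was 1 of the 34 new regions with an AP-1 site.

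Among textbook AP-1 targets 6 of 27 (22.2%) had a siNC FOSL1 region, all of them lost, and 5 are described here. PLAU, the urokinase plasminogen activator, had 5 from 14428 bp upstream to 21363 bp downstream of a start, with scores of 86, 261, 127, 154 and 164. Each met JUN in siNC cells, and 3 still did under siFOXA2, with JUN scores of 186, 383 and 520. Single regions stood at the promoter of the collagenase MMP13 (score 40), in HMGA1 (86), an architectural chromatin protein, in CD44 (73), the hyaluronan receptor, and at the promoter of the phosphatase DUSP1 (101). Of these, HMGA1 and CD44 kept a JUN region, with JUN scores of 1100 and 322 at HMGA1 and of 1118 and 250 at CD44. None was found within 50 kb of MMP1, MMP9, CCND1 or VEGFA.

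**Figure D5:**
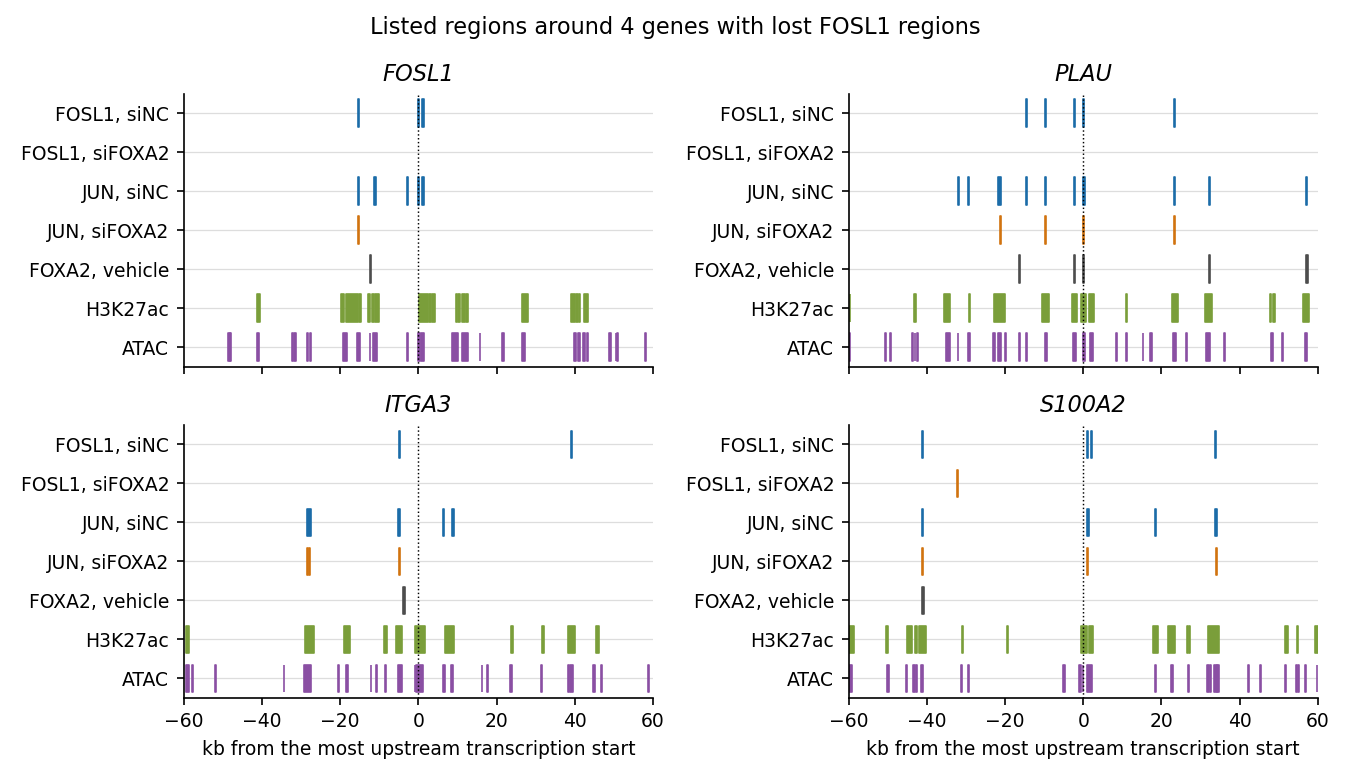
Listed regions (bars, after removal of places shared by 17 or more lists) within 60 kb of the most upstream transcription start (dotted line; horizontal axis in kb, positive downstream) of FOSL1, PLAU, ITGA3 and S100A2. The FOSL1 siNC row holds 3, 5, 2 and 4 regions and the FOSL1 siFOXA2 row 0, 0, 0 and 1, while the JUN siFOXA2 row holds 1, 4, 3 and 3.

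Integrins and adhesion genes had the largest share after the genes chosen by the study, with 10 of 19 (52.6%) within 50 kb, 7 of them with a region that held an AP-1 site and met JUN. ITGB1, the integrin β1 chain, had 4 regions with scores of 22, 251, 187 and 191, and 3 of these places met JUN under siFOXA2. ITGA3, whose product pairs with β1 as a laminin receptor, had a region 4931 bp upstream with a score of 191 and JUN scores of 1476 and 395. ACTN1 and ACTN4, the α-actinins that link actin to adhesions, had 2 and 1. VCL (vinculin) had 1 of score 148 in an intron 1304 bp downstream of a start, with an AP-1 site, a FOXA2 score of 2325 and JUN scores of 1016 and 77. PXN (paxillin) had 2, and ITGA6, ITGB5 and ITGB6 had 1 each. Near ITGB6, VCL and ACTN1 the siFOXA2 list had a new region of score 13, 27 and 13, none with an AP-1 site.

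Basal epithelial genes had siNC regions in 5 of 15 (33.3%). S100A2, a calcium-binding protein of basal cells, had 4 with scores of 103, 35, 196 and 92, each with an AP-1 site. EGFR had 3, the strongest in an intron with a score of 132 and JUN scores of 1270 and 318. ITGA6 (154) and LAMA3 (65), a laminin chain, kept a JUN region, and TP63, the basal lineage factor, had 1 region of score 34 with no JUN, ATAC or AP-1 site. In the mesenchymal list 2 of 18 (11.1%) had one, ITGB1 and TGFBR2, the type II TGFβ receptor, whose promoter region scored 156 with JUN scores of 1039 and 392. None was found near VIM, ZEB1, SNAI2 or FN1. In the YAP and TEAD list 3 of 16 (18.8%) had one: CCN1, VGLL3 and VGLL4.

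Neuroendocrine genes had 4 of 15 (26.7%) within 50 kb, a share that was 6.67% within 25 kb and 53.3% within 100 kb: ENO2 with a score of 111 and neither JUN nor an AP-1 site, SCG2 with 55, PEG10 with 49 and SOX2 with 37. FOXA and hepatocyte nuclear factor genes had 1 of 12 (8.33%), the kept FOXA2 interval. Of the genes the study tested by ChIP-qPCR, 6 of 11 (54.5%) had a siNC region, and since the study chose them on these cells they are not independent evidence. These were FOSL1, NDC80 with scores of 73 and 40, PTHLH with 114, WNT7A with 108, TP63 with 34 and CDK1 with 26. PTHLH, WNT7A and the NDC80 region of score 73 kept a JUN region under siFOXA2, with scores of 175, 234 and 170, as did the upstream FOSL1 region described above. New regions were found near 13 of 157 genes over all lists (8.28%).

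Genes with the most lost regions within 50 kb clustered on one chromosome. KCNMA1 had 7, NRP1, PLAU, CAMK2G, ANXA7, MSS51 and PCDH15 had 5 each, and ITGB1, LRMDA and S100A2 had 4, and all but S100A2 lie on chromosome 10. The last places were taken from 6 genes with 4 lost regions by their summed score, and 10 of all 13 genes with 4 or more lie on chromosome 10. The strongest NRP1 and KCNMA1 regions printed above lay just over 50 kb from a start and are not among these. Neighbours share regions: PLAU and CAMK2G, and ANXA7 and MSS51, were counted for mostly the same ones. Chromosome 10 held 9.08% (8.16% to 10.1%) of the siNC FOSL1 regions, against 5.53% of accessible regions and 5.63% of JUN siNC regions. In 75 to 80 Mb of that chromosome, which holds PLAU, VCL and KCNMA1, there were 56 FOSL1 regions, 1.62% of the list, against 0.538% of accessible and 0.562% of JUN siNC regions. No other bin of this size held more siNC FOSL1 regions, and none held more accessible or JUN siNC regions either. Chromosome 8 as a whole also held a larger share of the siNC FOSL1 regions, with 9.92% against 6.39% and 6.52%. In the new regions the shares were 4.63% (3.59% to 5.93%) for chromosome 10 and 5.26% (4.16% to 6.64%) for chromosome 8.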

How the data were processed

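ChIP-seq of FOSL1 in PC3 siNC and siFOXA2 cells gave 1 deposited list of regions each. Per the labels and the study's methods, chromatin was crosslinked and sonicated, libraries were built with a ThruPLEX kit, and the authors processed reads with FastQC 0.11.9, BWA 0.7.17-r1188 and SAMtools 1.9 on hg19 and called regions with MACS2 2.1.4. The control library, the threshold and any pooling were not given in the sources used here. Some named genes and regions are not reported here. The score column was deposited as whole numbers, with 13 as its lowest value, and was read as 10 times −log10 q from its range. The scoreless lists (LNCaP siNC JUN and FOXA2OE FOXA2) gave positions only. Depth was unknown.

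Regions listed in 17 or more of 22 lists were removed, and overlap meant at least 1 bp. Shares carry Wilson 95% intervals, differences of shares Newcombe intervals, and no test was possible with 1 list per side. The GRCh37 sequence 100 bp to either side of each centre was scanned for motif letters on both strands, with windows 2 kb away and accessible regions as background. Annotation was GENCODE 44 for that build, with promoters within 1 kb and genes within 50 kb of protein-coding starts. Named were the 10 highest-scoring kept, lost and new regions, list members with a region, the 10 genes with most lost regions, and the factors themselves. A region near a gene is not evidence that it regulates it. The members and gene lists were chosen with earlier results of these data known. Python 3.11.15, pandas 2.3.3, pysam 0.24.0 and samtools 1.23.1 were used, and the overlap, interval and motif functions were tested on simulated data. Alternatives were the overlap rule, score minimum, removal limit, motif window and gene distance.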

Additional observations from a re-analysis of the deposited data

How the results depend on the processing

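With 1 list per side and no read numbers, the precision stated is that of counting regions, and neither replicate spread nor depth could be assessed. No paired analysis was possible because each condition had 1 list. Of 89 alternative values for 17 results, 34 stayed within the counting interval of the reported value and 55 fell outside it. Only the log2 ratio and the JUN difference could change sign, as shares cannot be negative, and neither did. The log2 ratio for equal numbers of regions is 0 by construction and was left out.

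Removal at 12 or more lists gave a log2 ratio of -1.18, a kept share of 0.637% and a new share of 98.6%. Of lost regions it gave 57.6% with JUN siNC, 32.5% with JUN siFOXA2, 75.4% accessible, 56.1% with H3K27ac and 41.7% with an AP-1 site, and of new regions 1.71% with JUN siNC, 7.47% accessible and 3.09% with H3K27ac. No removal gave a kept share of 6.90%, a new share of 81.5%, lost regions with JUN siNC in 65.1%, JUN siFOXA2 in 43.5%, H3K27ac in 62.1% and an AP-1 site in 37.5%, a JUN difference of 57.3 points and FOXA2 at 45.6%. Removal at 20 or more lists gave 3.70% kept and 90.1% new. Counting only the 20 lists other than FOSL1, with removal at 15, was chosen after seeing the data and moved 1 of 7 values, lost regions with JUN siFOXA2, to 38.9%.

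Keeping scores of 30 and above gave a log2 ratio of -3.82, 1.26% kept and 81.7% new. Of lost regions it gave 71.0% with JUN siNC, 46.6% with JUN siFOXA2, 84.1% accessible, 66.7% with H3K27ac and 44.5% with an AP-1 site, and of new regions 11.2%, 30.6% accessible, 13.5% with H3K27ac, 4.12% with an AP-1 site and 7.65% at promoters. A minimum of 20 gave -2.70 and 89.8% new. Equal numbers of top regions gave 3.72% kept and 96.2% new.

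Requiring 50% of both regions gave lost regions with JUN siNC in 54.9%, JUN siFOXA2 in 38.6%, ATAC in 40.01% and H3K27ac in 10.7%, new regions in 1.26%, 4.66% (ATAC) and 0.789% (H3K27ac), and FOXA2 at 33.0%. The cause of the lower ATAC and H3K27ac values was not tested. AP-1 sites within 250 bp were in 44.7% of lost and 6.30% of new regions, and anywhere in the region in 42.8% of lost ones. Promoters of 2.5 kb took 12.5% of lost and 8.13% of new regions. Standardising gave a JUN difference of 34.9 points, and the second other FOXA2 ChIP 36.2%. Within 100 kb, 35.7% of list genes had a siNC region, against 24.8% within 50 kb, and for all genes the values were 22.8% and 13.4%. Of 20 values for single lists 4 left their interval: neuroendocrine genes with 6.67% within 25 kb and 53.3% within 100 kb, YAP and TEAD genes with 6.25% within 25 kb, and FOXA and hepatocyte nuclear factor genes with 41.7% within 100 kb. Within 100 kb the neuroendocrine share was above that of integrins and adhesion genes, 52.6%.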
